A study of Mus musculus with 6 samples.

Results

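The microRNAs miR-10a and miR-10b were compared between mouse CD4+CD25+ T cells, the natural regulatory T cells that hold immune responses in check, and conventional CD4+CD25- T cells. They are the 2 probes with the IDs 2org-10a and 1org-10b, chosen by ID among the 178 probes of the array, of which 171 measure miRNAs and 7 measure small nuclear RNAs or tRNAs. Each of the 6 two-colour arrays received total RNA of both populations, and the series counts them as 3 biological replicates, each hybridised again with the dyes exchanged. On arrays 1, 3 and 5 the CD4+CD25+ RNA was labelled with Cy5, on arrays 2, 4 and 6 with Cy3, and the CD4+CD25- RNA had the other dye. The labels state no strain, age, treatment or sorting, nor do they say whether the replicates came from separate animals. Hence p-values reflect only the spread among these samples, which may be technical and which limma largely pooled over probes. CD25 marks activated cells too, so the CD4+CD25+ population can hold activated conventional cells beside regulatory cells, and ratio arrays give no levels by which the labelled cell types could be checked.

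MicroRNAs are short RNAs that pair, mainly through a seed near their 5′ end, with messenger RNAs and lower their output. The genes of miR-10a and miR-10b lie in Hox clusters, the gene arrays that set position along the body axis, and their mature forms are close to identical, so they share most predicted targets. In T cells miR-10a is known as a miRNA of regulatory cells that retinoic acid and TGF-beta induce and that acts on the repressor Bcl6, while miR-10b is better known from tumour invasion.

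The 2 mature sequences are shown because the comparison between the probes turns on how little they differ. They are taken from RefSeq on GRCm38.p6, as the 5′ arms that carried these names, and capitals mark the seed, bases 2 to 8.
miR-10a-5p: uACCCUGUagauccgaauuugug
miR-10b-5p: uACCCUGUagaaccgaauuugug
Over 23 bases the mature forms differed by 1 substitution, U12A, counted from the 5′ end with the base of miR-10a first, and the seed was the same in both. Among 1679 mature mouse miRNA names in that table, these 2 alone carried this seed. The probes' own sequences were not used here, so how far each probe also captured the other miRNA was not measured.

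The precursors differ more than the mature forms, as their hairpins show, with the 5′ mature form in capitals.
Mir10a: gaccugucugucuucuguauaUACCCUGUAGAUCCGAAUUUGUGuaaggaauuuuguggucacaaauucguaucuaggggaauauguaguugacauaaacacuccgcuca
Mir10b: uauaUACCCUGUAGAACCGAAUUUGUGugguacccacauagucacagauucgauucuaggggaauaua
In GRCm38.p6, Mir10a lies at chr11:96317165-96317274 on the plus strand, within the span of Hoxb3 and between Hoxb5 and Hoxb4. Mir10b lies at chr2:74726070-74726137 on the plus strand, within the spans of Hoxd3 and Hoxd4. Whether these are exonic or intronic positions was not analysed here. The 3′ arms of the hairpins differ at 3 of 22 bases.

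Ratios are given on a log2 scale, with CD4+CD25+ cells in the numerator and CD4+CD25- cells in the denominator. The deposited table does not state the log base, the direction of its ratio, or whether swapped arrays had already been turned; the values were read as log2 of Cy5 over Cy3, and the sign was turned on arrays 2, 4 and 6. The opposite reading of the ratio would turn every sign. The orientations did not resemble each other: over the 171 miRNA probes, arrays of opposite dye correlated after turning at -0.251 to 0.369, against 0.521 to 0.622 among the arrays with CD4+CD25+ in Cy5 and 0.901 to 0.918 among those with it in Cy3. The array medians were -0.085, -0.31 and 0.097 in the former and 1.83, 1.29 and 1.82 in the latter, so each orientation is given apart.

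miR-10a stood near 0 with CD4+CD25+ cells in Cy5 and far above 0 with them in Cy3. Its log2 ratio with CD4+CD25+ in Cy5 was 0.387 on array 1, -0.091 on array 3 and 0.093 on array 5. On the Cy3 arrays it was 2.953 on array 2, 2.315 on array 4 and 3.148 on array 6. The orientations did not overlap, nor did the array medians, and 1 of the 6 values lay below 0. The share of all miRNA probes without overlap was not counted.

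The means were 0.13 ± 0.241 (SD, n = 3 arrays) in Cy5 and 2.81 ± 0.436 in Cy3. The gap between orientations was 2.68 with a standard error of 0.429 (limma adjusted p = 1.1e-05). Such a gap was common on these arrays, since 70.2% of the miRNA probes had one in either direction and 63.2% were called higher with CD4+CD25+ in Cy3. Fitted alone, the Cy5 arrays gave no call for miR-10a (limma adjusted p = 0.784), where 7.02% of probes were called higher. The Cy3 arrays alone gave a higher call (limma adjusted p = 4.21e-14), where 71.3% of probes were.

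miR-10b had the same step between dyes at a lower ratio. With CD4+CD25+ in Cy5 its log2 ratio was 0.023 on array 1, -0.946 on array 3 and -0.69 on array 5, and the mean was -0.54 ± 0.502 (SD, n = 3 arrays; limma adjusted p = 0.358 when these arrays were fitted alone). On the Cy3 arrays it was 2.005 on array 2, 1.154 on array 4 and 2.861 on array 6. Their mean was 2.01 ± 0.854 (limma adjusted p = 1.35e-08 when fitted alone). That p-value rests on a variance that limma largely pooled over probes, not on the SD of miR-10b alone. The orientations did not overlap for this probe either, as with the array medians. The gap was 2.54 with a standard error of 0.469 (limma adjusted p = 4.89e-05), close in size to that of miR-10a.

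**Figure D1:**
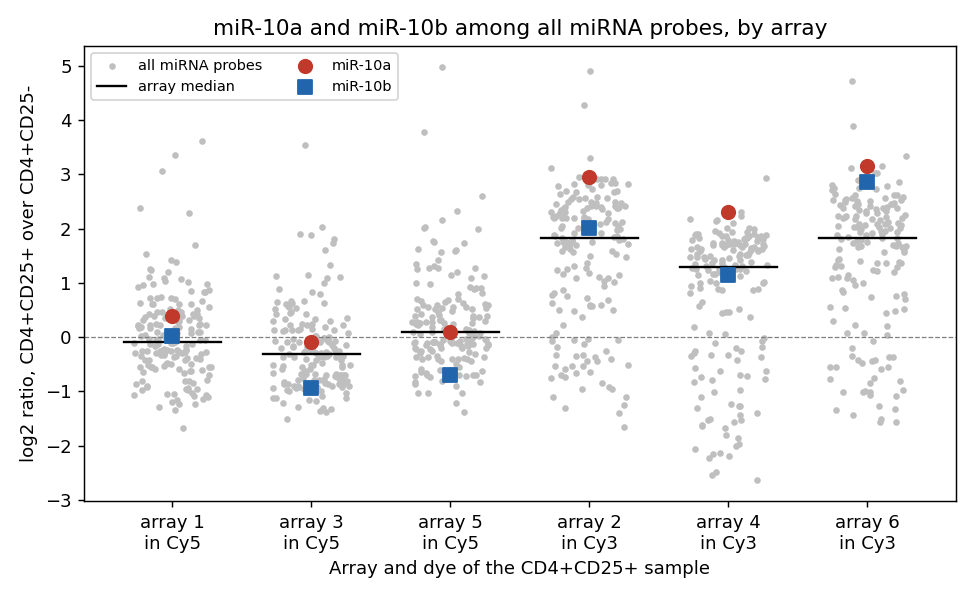
The log2 ratio between the cell populations (vertical axis, CD4+CD25+ as numerator) on each of the 6 arrays (horizontal axis, with the dye of the CD4+CD25+ sample), for all 171 miRNA probes in grey, with miR-10a as red circles, miR-10b as blue squares and a black line at each array's median. miR-10a lies above miR-10b on each array, and both move up with the whole array where CD4+CD25+ cells were in Cy3.

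Averaged over pairs of arrays of opposite dye, miR-10a had a log2 ratio of 1.47 ± 0.331 (SD, n = 3 replicates), or 2.77-fold, and passed the test (limma adjusted p = 0.00411). miR-10b had 0.73 ± 0.672, or 1.66-fold, and also passed (limma adjusted p = 0.0345). The largest limma standard error over pairings was 0.271 for miR-10a and 0.273 for miR-10b, although their SDs differed. The variance was thus largely pooled over probes, and these p-values do not measure the SDs beside them. The labels do not say which arrays form a pair, so the largest SD and the largest p over the 6 possible pairings are given, and a call needs an adjusted p under 0.05 in each. Both calls are read against 67.3% of all miRNA probes called higher by the same test, a share at which 2 of 2 probes is not a result about these miRNAs. miR-10a had the 8th largest mean ratio of 171 and miR-10b was at position 100, where the median probe had 0.82. With no array turned, 91 probes were called, 3 of them higher, and miR-10a and miR-10b were at positions 19 and 25 from the lowest mean. The call of miR-10a ended in 2 of 9 fits that left out a pair of opposite arrays, without arrays 3 and 2 (1.49, limma adjusted p = 0.0594) and without arrays 5 and 6 (1.39, limma adjusted p = 0.0841). The call of miR-10b ended in 5 of 9 such fits: without arrays 1 and 2 (0.59), 1 and 6 (0.38), 3 and 2 (0.84), 3 and 6 (0.62), or 5 and 6 (0.56), with limma adjusted p from 0.0738 to 0.365.

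Relative to the array median, miR-10a stayed higher in CD4+CD25+ cells and miR-10b did not. The centred values of miR-10a with CD4+CD25+ in Cy5 were 0.472 on array 1, 0.221 on array 3 and -0.004 on array 5. With CD4+CD25+ in Cy3 they were 1.125 on array 2, 1.027 on array 4 and 1.326 on array 6. The 3 Cy3 values were again above all 3 Cy5 values, and for what share of probes this held was not counted. The mean over replicates was 0.69 ± 0.195 (SD, n = 3; limma adjusted p = 0.00593), or 1.62-fold, and 5.26% of the miRNA probes were called higher in this way. The gap between orientations was reduced to 0.93 with a standard error of 0.319 (limma adjusted p = 0.0212), where 11.7% of probes were called higher with CD4+CD25+ in Cy3. Within single orientations the centred mean was 0.23 ± 0.238 in Cy5 (limma adjusted p = 0.647) and 1.16 ± 0.152 in Cy3 (limma adjusted p = 0.000179), so of the orientations taken singly the Cy3 arrays alone gave a call.

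For miR-10b the centred values with CD4+CD25+ in Cy5 were 0.108 on array 1, -0.634 on array 3 and -0.787 on array 5. With CD4+CD25+ in Cy3 they were 0.177 on array 2, -0.134 on array 4 and 1.039 on array 6. Here the orientations overlapped, and 3 of 6 arrays lay above the median. The mean was -0.0385 ± 0.543 (SD, n = 3; limma adjusted p = 0.9), which turned the sign, and the gap between orientations did not pass (0.80, limma adjusted p = 0.0903).

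Ranks within single arrays do not depend on any centring. Counted from the highest ratio among 171 probes, miR-10a was at rank 5 on array 2, rank 2 on array 4 and rank 4 on array 6, but at ranks 49, 64 and 87 on arrays 1, 3 and 5. miR-10b was at ranks 75, 97 and 12 on arrays 2, 4 and 6 and between ranks 78 and 156 on arrays 1, 3 and 5. The ranks on arrays 2, 4 and 6 rest on the turning: with no array turned, the same ranks count from the lowest ratio.

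The 2 miRNAs were then compared with each other. Both probes lie on every array, so it does not change with any centring. The log2 ratio of miR-10a exceeded that of miR-10b by 0.364 on array 1, 0.855 on array 3 and 0.783 on array 5, with CD4+CD25+ in Cy5. It exceeded it by 0.948 on array 2, 1.161 on array 4 and 0.287 on array 6, with CD4+CD25+ in Cy3. The difference had the same direction on 6 of 6 arrays, and the orientations overlapped. The mean difference was 0.67 in Cy5 and 0.80 in Cy3, and 0.73 ± 0.360 (SD, n = 3) over replicates. An exact two-sided sign-flip permutation test of 3 replicates gave p = 0.25, the smallest this test can give with 3 replicates, so it cannot pass 0.05. It is a difference between ratios, not between levels, and with no array turned it was -0.066. Of the other 169 miRNA probes, 6 (3.55%) lay above miR-10b on all 6 arrays: miR-129, miR-207, miR-291-as, miR-297, miR-214 and miR-223, named after their values were seen. miR-10a in turn lay above 51 of these 169 (30.2%) on all 6 arrays.

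Pairs of other miRNAs with near-identical sequences show how far such probes usually differ here. A RefSeq sequence was matched to 69 miRNA probes, and 28 pairs of these differed by at most 2 bases from the first base on. No sequence was found for miR-23b, miR-30b, miR-30d, miR-34c and miR-302, so pairs with these probes are missing and positions hold among the 28 only. Pairs that share a probe are not independent, and each difference was taken in the direction of its mean. In 6 of the 28 pairs it had the same sign on 6 of 6 arrays, miR-10a minus miR-10b among them. Its mean of 0.73 was the 9th largest, within a range from 0.009 (miR-200b minus miR-200c) to 1.99 (miR-98 minus let-7c) around a median of 0.44. Among the 12 pairs that, like this one, differ by 1 base at most, it was the third largest, where the median was 0.165 and the largest mean 1.03 (miR-30a minus miR-30e). Its 2 orientation means lay 0.131 apart, the third smallest such distance, where the median pair had 0.593 and the largest distance was 3.08. These are descriptions with no test.

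**Figure D2:**
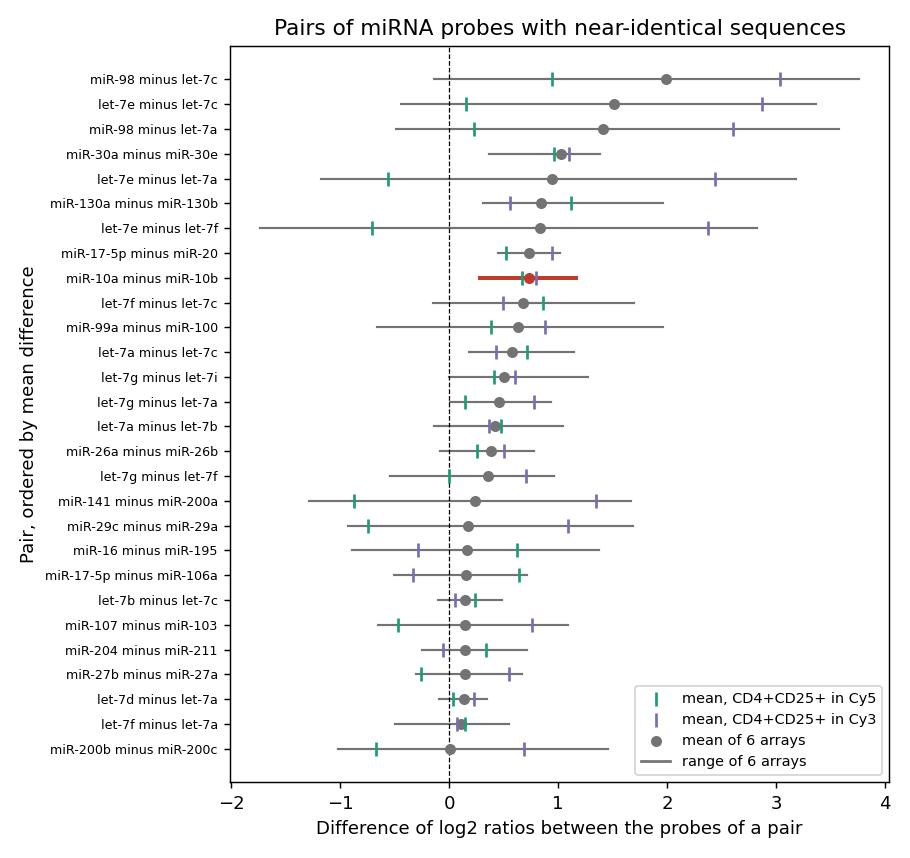
The difference of log2 ratios (horizontal axis) between the 2 probes of each of 28 near-identical pairs (vertical axis, ordered by the mean), with the range over 6 arrays as a line, the mean as a dot and the mean of each dye orientation as a coloured tick. For miR-10a minus miR-10b, in red, the range of 0.287 to 1.161 lies above 0 and the ticks, at 0.67 and 0.80, are close together.

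The median ratio of probes for miRNAs of other tissues was also higher with CD4+CD25+ in Cy3. The 27 such off-tissue probes (neural, muscle, epithelial, liver and embryonic stem cell miRNAs) had a median of -0.32 with CD4+CD25+ in Cy5, ranging from -1.21 to 1.11. With it in Cy3 the median was 2.14, ranging from -0.0073 to 2.92. The highest in Cy5 and the lowest in Cy3 were the same probe, miR-200c, which moved the other way. In Cy5, 21 of the 27 lay below miR-10a and 7 below miR-10b. In Cy3, 26 lay below miR-10a and 7 below miR-10b. Over both orientations 27 of 27 lay below miR-10a, and 5 of 27 below miR-10b. With the arrays centred on these probes miR-10a passed narrowly (0.55 ± 0.285, limma adjusted p = 0.0451) and its gap between orientations fell to 0.17 (limma adjusted p = 0.693).

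The probes whose values over the 6 arrays lay nearest to miR-10a, by root mean square difference, were miR-129 at 0.263, miR-199-s at 0.411, miR-199b at 0.465, miR-298 at 0.474 and miR-211 at 0.497. Those nearest to miR-10b were miR-292-s at 0.375, miR-295 at 0.389, miR-182* at 0.410, miR-302 at 0.415 and miR-148 at 0.434. All 10 had a mean below 0 in Cy5, from -0.72 to -0.0093, and from 1.83 to 2.56 in Cy3, a likeness fixed by how they were chosen. miR-10b was at position 57 of 170 for miR-10a, at a distance of 0.796, although the 2 members correlated at 0.975 over the 6 arrays. The 2 members also carry different ID prefixes, whose meaning the labels do not explain. The median ratio of the 127 probes with the prefix of miR-10b was -0.11 in Cy5 and 1.56 in Cy3, and that of the 44 with the prefix of miR-10a was 0.045 and 1.88.

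**Figure D3:**
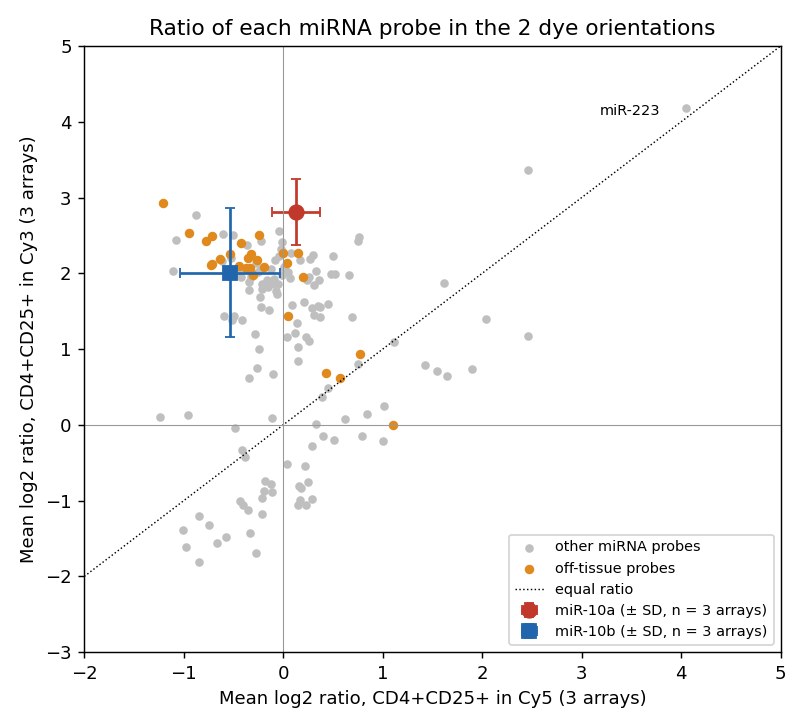
The mean log2 ratio of each of 171 miRNA probes on arrays 1, 3 and 5, where Cy5 labelled CD4+CD25+ cells (horizontal axis), and on arrays 2, 4 and 6, where Cy3 did (vertical axis), with off-tissue probes in orange, miR-10a and miR-10b with SD bars and a dotted line of equal ratio. miR-10a, at 0.13 and 2.81, lies at the upper edge of the group of probes high in Cy3 alone, and miR-10b, at -0.54 and 2.01, lies within it.

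Of the other miRNAs encoded in Hox clusters, the list held 4 names and 1 was measured, the miR-196 probe, whose family represses Hox messengers. Its log2 ratios with CD4+CD25+ in Cy5 were 0.345 on array 1, 0.42 on array 3 and 1.307 on array 5. On the Cy3 arrays they were 1.147 on array 2, 1.249 on array 4 and 1.876 on array 6. It lay above 0 on 6 of 6 arrays, as 8.19% of miRNA probes did. Its orientations overlapped, while those of both miR-10 probes and of the array medians did not. It was higher as deposited (1.06 ± 0.465, SD, n = 3; limma adjusted p = 0.00569) and did not pass after median centring (0.28, limma adjusted p = 0.297). The gap between its orientations did not pass as deposited (0.73, limma adjusted p = 0.134). After median centring the gap passed in the other direction (-1.01, limma adjusted p = 0.0209), with means of 0.79 in Cy5 and -0.22 in Cy3. The share of probes with a centred gap in that direction was not counted.

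The wider miR-10 family adds miR-99a, miR-99b and miR-100, which share another seed, and miR-125a and miR-125b. The miR-100 sequence is shown because it is nearest to miR-10a, and that of miR-99a as the second member with its seed.
miR-100-5p: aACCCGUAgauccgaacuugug
miR-99a-5p: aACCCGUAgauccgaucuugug
With base 6 of miR-10a removed, miR-100 differed from it at 2 of 22 bases and miR-99a at 3, so the shift of 1 base lies in the seed. As deposited 4 of the 5 family probes were higher, 0 were lower and miR-100 did not pass (0.29, limma adjusted p = 0.312), where 67.3% of all miRNA probes were called higher and 8.77% lower. The list had a median of 0.96 against 0.82 for all miRNA probes. After median centring 1 of 5, miR-125a, was higher (0.97 ± 0.314, limma adjusted p = 0.00134), against 5.26% of all miRNA probes, and the median was 0.19 against 0.051. miR-125a had 1.62 in Cy5 and 1.87 in Cy3, and its gap between orientations, 0.26, did not pass as deposited (limma adjusted p = 0.586). After median centring it had 1.72 in Cy5 and 0.23 in Cy3, a gap of -1.49 (limma adjusted p = 0.00106). As deposited, miR-99b had 1.65 in Cy5 and 0.64 in Cy3, and miR-99a had 0.28 and 1.55. miR-125b had -0.13 and 2.06, and miR-100 had -0.10 and 0.67. The deposited gap of the 2 miR-10 probes exceeded that of these 5, of which miR-125b had the largest at 2.19. After median centring this did not hold, as miR-99b had -2.76 against 0.93 for miR-10a and 0.80 for miR-10b. Differences between gaps were not tested.

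Myeloid, erythroid and endothelial or stromal markers were higher as deposited, as were 67.3% of all miRNA probes. Most of these markers were not called after median centring. The myeloid miRNA miR-223 had a log2 ratio of 4.12 ± 0.855 (SD, n = 3; limma adjusted p = 0.000103) and was above 0 on 6 of 6 arrays. All 9 endothelial or stromal probes were higher as deposited, from 0.59 to 2.91, against 67.3% of all miRNA probes and 25 of the 27 off-tissue probes. After median centring 2 of the 9 were, miR-214 and miR-126*, against 5.26% of all. The erythroid probe miR-144 was higher as deposited (0.69, limma adjusted p = 0.0302) and not after centring (-0.079). Of 5 probes listed as lymphocyte markers, 1 was higher (miR-155) and 3 were lower (miR-150, miR-181 and miR-142-as) as deposited. After median centring 0 of them were higher in limma (1, miR-155, at an unadjusted p under 0.05; adjusted p = 0.0883) and 4 were lower, with miR-142-s added. Outside this list, miR-181b (0.17, limma adjusted p = 0.552) and miR-181c (0.38, limma adjusted p = 0.18) were not called as deposited. After median centring miR-181b was lower (-0.60, limma adjusted p = 0.0374) and miR-181c was not called. The ratios give no levels, so how much RNA of such cells each sample held is unknown, and its part in the ratio of miR-10a was not tested.

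**Figure D4:**
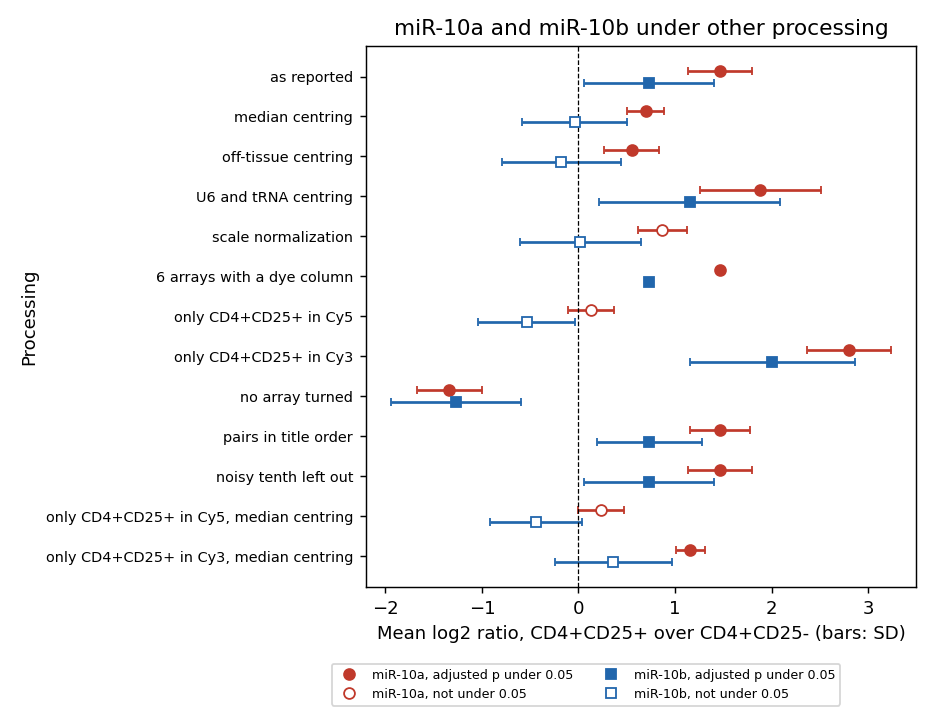
The mean log2 ratio of miR-10a (red circles) and miR-10b (blue squares) with SD bars (horizontal axis; none for the fit with a dye column) under each way of processing the arrays (vertical axis), filled where the limma adjusted p was under 0.05. miR-10a ranges from 0.13 to 2.81 with the arrays turned, and miR-10b lies below 0 with median centring, with off-tissue centring, on the Cy5 arrays and with no array turned.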

How the data were processed

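Per the file headers and values, the deposited numbers are 1 log ratio per probe and array, made by the authors and read here as log2; the labels and the file header do not state background correction, normalization, centring, scanner or software. Scanner intensities were not used here, so no probe could be marked as dim, and the number of arrays limits the precision. Probes were named by their IDs with the prefix removed, and these names were matched to RefSeq miRNAs where a sequence was sought.

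limma (version 3.58.1, R 4.3.3) was fitted to all 171 miRNA probes with an intercept, lmFit and eBayes, on 3 values per probe, where a value averaged 2 arrays of opposite dye, over all 6 pairings. The eBayes step draws the variance of each probe towards a value common to all probes, so a limma p-value does not measure the SD printed with it. p-values were adjusted by the Benjamini-Hochberg method over the 171 probes. The gap between orientations was fitted with limma on 6 arrays with a dye column. The steps were tested on simulated data in which most probes had no true change and noise was independent between probes. A mean ratio shifted for all probes was not simulated. Genes named were both members, the listed Hox and miR-10 family probes and the 5 nearest probes of each member. Also named were the near-identical pairs with the smallest and largest mean difference, probes without a sequence, and markers of other cells called under both centrings. miR-144, the lymphocyte markers, miR-181b, miR-181c and the probes above miR-10b on every array were named after their values were seen. Other called markers are counts. The members and lists were chosen with earlier results of these data known. Median, off-tissue, and U6 and tRNA centring, scale normalization, single orientations, no turning, pairing in title order, leaving out noisy probes and leaving out arrays were the alternatives; single orientations with median centring were added after seeing the data.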

Additional observations from a re-analysis of the deposited data

Results flagged for a closer look

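The log2 ratio of miR-10a differed between dye orientations by 2.68 (CD4+CD25+ in Cy3 minus in Cy5; limma adjusted p = 1.1e-05), and that of miR-10b by 2.54 (limma adjusted p = 4.89e-05). Both are differences of the same contrast between groups of 3 arrays each, and 70.2% of the miRNA probes had such a difference in either direction.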

How the results depend on the processing

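The ratio of miR-10a kept its direction in 20 of 21 alternatives, and it was not called after scale normalization (0.87, limma adjusted p = 0.0708) or on the arrays with CD4+CD25+ in Cy5 (0.13; 0.23 with median centring). With no array turned both members were lower, miR-10a at -1.34 and miR-10b at -1.27 (limma adjusted p = 0.0124 for each), and their difference was -0.066. miR-10b turned sign with median centring (-0.0385), off-tissue centring (-0.18) and on the Cy5 arrays (-0.54; -0.44 with median centring), and was not called after scale normalization (0.017) or on the Cy3 arrays with median centring (0.36). The gap between orientations did not pass with off-tissue centring (0.17 for miR-10a, 0.036 for miR-10b), nor for miR-10b with median centring (0.80). The 130 calls among all miRNA probes became 48 with median centring, 47 with off-tissue centring, 14 after scale normalization, 19 on the Cy5 arrays (18 with median centring), and 91 with no array turned, of which 3 were higher against 115 of the 130. U6 and tRNA centring raised miR-10a to 1.88 (limma adjusted p = 0.00543) and miR-10b to 1.15 (limma adjusted p = 0.00943), with 127 calls. The miR-196 probe, called as deposited, gave 0 calls in limma with median centring, off-tissue centring, scale normalization, no turning, the Cy5 arrays, and either orientation with median centring (at an unadjusted p under 0.05 it passed after scale normalization and on the Cy5 arrays with or without median centring). The 4 higher calls of the wider family became 1 with median or off-tissue centring, 2 after scale normalization, 2 on the Cy5 arrays with or without median centring, and 0 in limma with no turning or on the Cy3 arrays with median centring (0 also at an unadjusted p under 0.05).

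Leaving out a pair of opposite arrays gave 1.32 to 1.65 for miR-10a, called in 7 of 9 fits, 0.38 to 1.05 for miR-10b, called in 4 of 9, and 0.60 to 0.94 for their difference. The call of miR-10b ended without arrays 1 and 2, 1 and 6, 3 and 2, 3 and 6, or 5 and 6 (limma adjusted p from 0.0738 to 0.365). Calls over all probes ranged from 0 (without arrays 3 and 2 in limma; 98 at an unadjusted p under 0.05) to 127, of the miR-196 probe from 0 to 1 and of the wider family from 0 to 4. Leaving out 1 array gave gaps between orientations of 2.50 to 2.92 for miR-10a and 2.12 to 2.97 for miR-10b. The causes of these changes were not tested. Signal over background is unknown.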
